A study of Aspergillus nidulans with 12 samples.

Results

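Chromatin immunoprecipitation followed by sequencing (ChIP-seq) of LaeA in Aspergillus nidulans gave 441 peaks at gene starts that had no VeA peak nearby. These peaks, called LaeA-only promoter peaks here, were chosen by the positions of pooled peak calls and were taken from the combined LaeA peak list, which holds 3333 peaks called on the pooled tags of 3 libraries. Of these peaks, 1549 were annotated as promoter peaks and lay nearest to exon 1 of a gene. A peak was LaeA-only when no centre of the combined VeA list (5502 peaks) lay within 1000 bp on the same chromosome. The LaeA-only peaks were 28.5% of the exon 1 promoter peaks (95% Wilson interval 26.3% to 30.8%) and 13.2% of all LaeA combined peaks, of which 40.2% had no VeA centre within this distance, and they lay nearest to 438 genes. The remaining 1108 exon 1 promoter peaks had a VeA centre within 1000 bp and serve as the set most like them. All Wilson intervals cover counting error only.

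The strains were the LaeA::FLAG strain (genotype laeA::FLAG::AfriboB, veA), the VeA::FLAG strain (veA::FLAG::AfriboB) and the untagged wild type (WT). In both tagged strains the FLAG peptide was placed at the C terminus of the protein, and each strain came from a single transformant through a cross, so each protein was studied in 1 line. All cells were grown vegetatively for 24 h in liquid glucose minimal medium in the dark. Each strain had 3 libraries precipitated with a mouse anti-FLAG antibody and 1 library with anti-rabbit IgG as the negative control. Nothing in the labels says whether the 3 libraries of a strain came from separate cultures.

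LaeA is a nuclear protein with a methyltransferase-like domain that is known as a global regulator of secondary metabolism and development in filamentous fungi. VeA belongs to the velvet family, moves into the nucleus mainly in the dark, and joins LaeA there in the velvet complex together with VelB. Because the 2 proteins act in a complex, peaks of LaeA that have no VeA peak beside them are of interest for LaeA without VeA. A peak in ChIP-seq marks a place where the precipitated DNA is enriched over the IgG control, and a FLAG antibody also recovers some DNA from WT cells, which carry no epitope.

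Depth differed between libraries. The totals in the file headers were 970628 to 3701440 tags in the LaeA::FLAG libraries, 1456060 to 1893170 in the VeA::FLAG libraries and 319742 to 7974010 in WT. Signals are given as tags per 10 M, so that 1 tag was worth 2.70 to 10.3 units in LaeA::FLAG libraries but 31.3 units in WT replicate 3. WT replicate 2 had 1831 peaks, against 134 and 201 in WT replicates 1 and 3. LaeA::FLAG replicate 3 had 557 peaks, against 2471 and 2217 in replicates 1 and 2. For these reasons shares are given for each library as well as over libraries.

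The LaeA-only peaks lay close to the start of the first exon. Their median distance was -150 bp, where a negative value is upstream, with the middle 50% between -368 and 7 bp. The other exon 1 promoter peaks had a median of -200 bp, with the middle 50% between -468 and -52 bp. In all, 131 LaeA-only peaks (29.7%, 95% Wilson interval 25.6% to 34.1%) were centred within 100 bp of the start, against 264 of the other peaks (23.8%, 21.4% to 26.4%). A centre downstream of the start was found for 118 LaeA-only peaks (26.8%, 22.8% to 31.1%) and for 199 of the other peaks (18.0%, 15.8% to 20.3%). Over all peaks, the LaeA-only set was therefore shifted toward the transcribed side. Position was not compared among peaks of like strength here. For 77 of the LaeA-only peaks the annotation named a different gene than the one nearest to the peak, so that the assignment to 1 gene is uncertain there.

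**Figure D1:**
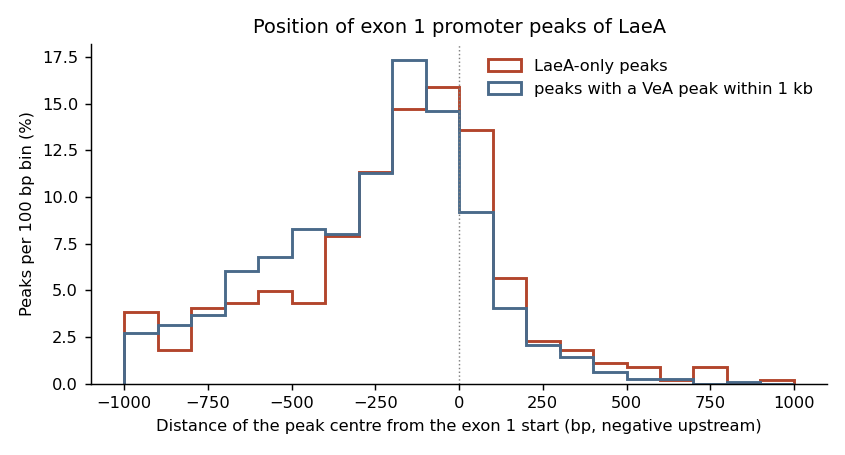
Histogram of the distance between peak centre and exon 1 start, in bp with upstream negative, as the percentage of peaks per 100 bp bin for the 441 LaeA-only peaks and the 1108 other exon 1 promoter peaks. Both sets are centred just upstream of the start, and 26.8% of LaeA-only peaks against 18.0% of the other peaks lie downstream of it.

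The peaks were spread over all chromosomes. Among the exon 1 promoter peaks of a nuclear chromosome, the LaeA-only share lay between 24.5% on chromosome III (49 of 200) and 30.9% on chromosome V (46 of 149), and the Wilson intervals of all 8 chromosomes overlapped. The mitochondrial genome held 5 LaeA-only peaks. All 5 exon 1 promoter peaks there were LaeA-only, and the combined VeA list holds 0 mitochondrial peaks, so the rule had no VeA centre to measure from. On the nuclear chromosomes the nearest VeA centre lay at a median of 3104 bp from a LaeA-only peak, with the middle 50% between 1936 and 5176 bp.

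Some peaks were close to the limit of 1000 bp. Just beyond it lay the LaeA-only peaks nearest to AN9473, with a VeA centre at 1004 bp, and to AN0874 and AN11094, with a VeA centre at 1007 bp each. Just within it, and so not in the set, lay the peaks nearest to AN2195 at 997 bp, AN8256 at 993 bp and AN2009 at 991 bp. With limits of 500 and 2000 bp the set would hold 617 and 327 peaks. With a limit of 100 bp, the distance at which peaks were called shared, it would hold 1010 peaks.

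The LaeA-only peaks were weak members of the list. Their median peak score, the value by which the peak caller ranks peaks, was 215 (middle 50%, 176 to 280), against 295 for the other exon 1 promoter peaks (225 to 405) and 245 for all LaeA combined peaks (185 to 357). The median anti-FLAG signal was 224 tags per 10 M, against 305 for the other exon 1 promoter peaks. The median signal of the LaeA::FLAG IgG library in the same peaks was 83.4 tags per 10 M, against 106. The ratio of the anti-FLAG to the IgG signal, called fold here, was 2.67 at LaeA-only peaks (middle 50%, 2.32 to 3.21) and 2.89 at the other peaks (2.42 to 3.78). A fold of at least 4 was reached by 44 LaeA-only peaks (9.98%, 95% Wilson interval 7.52% to 13.1%), while 18.1% of all LaeA combined peaks reached it.

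The share of LaeA-only peaks among exon 1 promoter peaks was lower where the score was higher. When the combined list was divided into 4 equal groups by score, LaeA-only peaks made up 51.5% of the exon 1 promoter peaks in the lowest group (137 of 266). They made up 40.3% in the second group (146 of 362), 23.1% in the third (112 of 485) and 10.6% in the highest (46 of 436). Because the set is weak, comparisons of calls and of IgG signal with the other promoter peaks are also given for the highest group alone.

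To learn how often the LaeA-only peaks were found again in single libraries, a peak was counted as called when a peak centre of the library lay within 100 bp. In LaeA::FLAG replicates 1, 2 and 3, 127, 60 and 51 of the 441 LaeA-only peaks were called, which is 28.8%, 13.6% and 11.6%. Of the 1108 other exon 1 promoter peaks 344, 277 and 186 were called in the same libraries, which is 31.0%, 25% and 16.8%. The share of LaeA-only peaks was lower in 3 of 3 libraries, with a mean difference of -6.29 percentage points (SD 4.67, n = 3; exact paired two-sided permutation test over libraries, p = 0.25, the smallest value that 3 pairs allow). This comparison could therefore not reach 0.05. The combined list was called on the pool of these 3 libraries, and LaeA-only peaks had lower scores in it. The shares are thus not independent of the list, and the difference is a description. Without LaeA::FLAG replicate 2 the mean difference was -3.74 percentage points. In the highest group by score the mean difference was -6.62 percentage points (exact paired two-sided permutation test, p = 0.25).

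Few LaeA-only peaks were called more than once. At least 1 LaeA::FLAG replicate held 213 of them (48.3%, 95% Wilson interval 43.7% to 53.0%), beside 47.4% of all LaeA combined peaks, so at this level the set was near the background of the list. At least 2 replicates held 19 (4.31%, 2.78% to 6.63%), beside 10.1% of all LaeA combined peaks and 14.1% of the other exon 1 promoter peaks (156 of 1108). All 3 replicates held 6 (1.36%, 0.625% to 2.94%), beside 2.76% of all LaeA combined peaks. When 1 replicate was left out and both others had to hold the peak, the share was 2.04% to 2.72%. The remaining 228 LaeA-only peaks had no peak centre of a single LaeA::FLAG library within 100 bp. In the lowest group by score 0 of 137 LaeA-only peaks were called in at least 2 replicates, whereas in the highest group 12 of 46 were (26.1%, 15.6% to 40.3%), against 128 of 390 other peaks (32.8%, 28.3% to 37.6%). The combined list was made from these replicates, so the counts describe how evenly the replicates contributed.

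**Figure D2:**
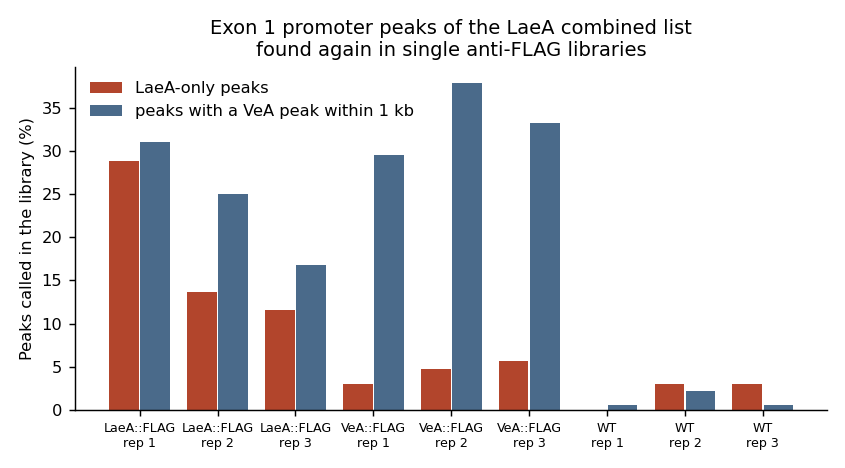
Percentage of exon 1 promoter peaks of the LaeA combined list with a peak centre within 100 bp in each of the 9 anti-FLAG libraries, as bars for the 441 LaeA-only peaks (left) and the 1108 other peaks (right). LaeA-only peaks reach 11.6% to 28.8% in LaeA::FLAG libraries, 2.95% to 5.67% in VeA::FLAG libraries, whose low level the rule itself gives, and 0% to 2.95% in WT.

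The WT libraries, which did not enter the rule, were examined next. In WT replicates 1, 2 and 3, 0, 13 and 13 of the LaeA-only peaks were called (0%, 2.95% and 2.95%), against 6, 24 and 6 of the other exon 1 promoter peaks (0.542%, 2.17% and 0.542%). A count of 0 of 441 allows a share of up to 0.864% by the Wilson method. The mean difference was 0.88 percentage points (SD 1.48, n = 3, higher for LaeA-only peaks in 2 of 3 libraries; exact paired two-sided permutation test, p = 0.5) and did not hold up against the spread between libraries. Without WT replicate 3 it was 0.12 percentage points, and without WT replicate 1 it was 1.59. At least 1 WT library held 19 LaeA-only peaks (4.31%, 95% Wilson interval 2.78% to 6.63%), beside 4.35% of all LaeA combined peaks. At least 2 WT libraries held 7 of the 441 LaeA-only peaks and 3 of the 1108 other exon 1 promoter peaks. The share over all LaeA combined peaks at this level is not given here, so these counts are a description.

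The WT calls were gathered at the strongest LaeA-only peaks. In the highest group by score 11 of 46 LaeA-only peaks (23.9%, 95% Wilson interval 13.9% to 37.9%) had a WT peak within 100 bp, against 15 of 390 other exon 1 promoter peaks (3.85%, 2.34% to 6.25%). In this group the difference per WT library averaged 10.1 percentage points (exact paired two-sided permutation test, p = 0.5, where 3 pairs cannot give less than 0.25). Of the 19 LaeA-only peaks called in at least 2 LaeA::FLAG replicates, 8 also had a WT peak (42.1%, 23.1% to 63.7%), against 9 of 156 of the other peaks (5.77%, 3.06% to 10.6%) and 56 of 337 over the whole combined list (16.6%). Of the 6 LaeA-only peaks called in all 3 LaeA::FLAG replicates, 5 had a WT peak, against 1 of 39 of the other peaks. Shares over the whole list are not given here for the highest group or for all 3 replicates. WT calls were not particular to LaeA-only peaks, because 145 of the 3333 LaeA combined peaks had one. Without WT replicate 3, 5 of the 46 LaeA-only peaks of the highest group (10.9%) had a WT peak, against 14 of the 390 other peaks (3.59%), and of the peaks called in at least 2 LaeA::FLAG replicates 4 of 19 had one, against 9 of 156. LaeA-only peaks called in at most 1 replicate had a WT peak in 11 of 422 cases (2.61%), against 24 of 952 of the other peaks (2.52%).

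The 6 peaks called in all 3 LaeA::FLAG replicates are described one by one. The strongest LaeA-only peak lay on chromosome VII from 2231578 to 2231854, 819 bp upstream of AN1912, with a score of 11089 and a fold of 10.05 over IgG. Coordinates are given on the FGSC A4 assembly, as in the deposited lists. Its anti-FLAG signal was 11016, 18756 and 11379 tags per 10 M in LaeA::FLAG replicates 1, 2 and 3, against 13291 and 58047 in WT replicates 2 and 3, and no peak was called there in WT replicate 1. The signal in WT replicates 2 and 3 was thus within or above the range of the tagged strain. WT replicate 1, without a peak, was the deepest WT library, and 1 tag of WT replicate 3 is worth 31.3 units. The merged region around this peak, a region the authors made by joining peaks of several lists, held an IgG signal of 1230 in LaeA::FLAG, 13263 in VeA::FLAG and 3680 in WT.

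The peak upstream of AN7715 was the only one of the 6 without a WT peak. It lay on chromosome IV from 2462168 to 2462444, 305 bp upstream of the gene, and had the second highest score, 2606, with a fold of 11.4. Its anti-FLAG signal was 1859, 5666 and 2226 tags per 10 M in LaeA::FLAG replicates 1, 2 and 3. The IgG signal of its merged region was 409 in LaeA::FLAG, 3284 in VeA::FLAG and 2626 in WT. The 3 LaeA::FLAG values were thus all above the IgG value of their own strain, and 2 of them were below the IgG value of WT, which was taken over a wider region.

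The remaining 4 had a WT peak in replicate 3. The peak at amcA (AN8881), which encodes a putative mitochondrial ornithine transporter, lay on chromosome VII from 571049 to 571325, 87 bp downstream of the start. The annotation of this peak names AN11145, so the assignment to amcA is uncertain. Its signal was 1335, 2019 and 1483 in the LaeA::FLAG replicates, against 7991 in WT replicate 3. At AN7491 the signal was 445, 1370 and 465 in the LaeA::FLAG replicates, against 7162 in WT replicate 3. In each case the WT value was the highest, and 1 tag of that library is worth 31.3 units.

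At AN2899 the LaeA::FLAG replicates had a signal of 522, 860 and 426, against 1085 in WT replicate 2 and 4910 in WT replicate 3. At AN2350 they had 478, 762 and 431, against 4941 in WT replicate 3. No peak was called at any of the 6 sites in a VeA::FLAG library. The VeA::FLAG IgG library had the highest signal of the 3 IgG libraries at all 6, with a median of 2073 tags per 10 M, against 289 in the LaeA::FLAG IgG library and 651 in the WT IgG library.

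**Figure D3:**
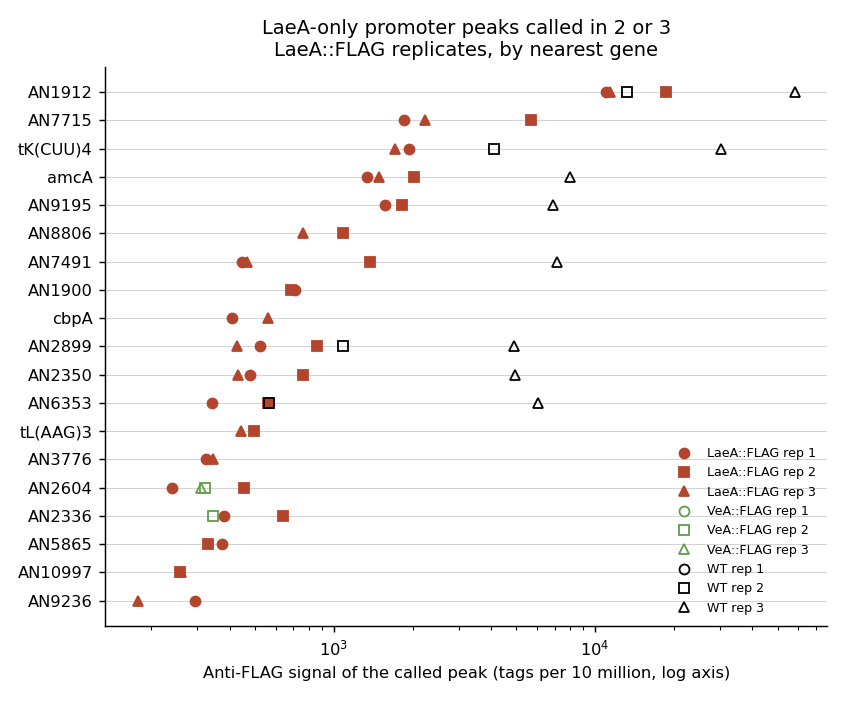
Anti-FLAG signal (tags per 10 M, log axis) of the called peaks at the 19 LaeA-only peaks found in 2 or 3 LaeA::FLAG replicates, by nearest gene in order of score, with filled symbols for LaeA::FLAG and open symbols for VeA::FLAG and WT libraries. Where a WT replicate 3 peak was called, its signal (4910 to 58047) lies above every LaeA::FLAG value of the same site.

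A further 13 peaks were called in exactly 2 LaeA::FLAG replicates. With the peak at AN7715, 11 LaeA-only peaks were called in at least 2 LaeA::FLAG replicates and in no WT library, which lay nearest to AN7715, AN8806, AN1900, cbpA (AN6249), tL(AAG)3, AN3776, AN2604, AN2336, AN5865, AN10997 and AN9236. All but AN7715 are named after their values were seen, and the peak nearest to AN1900 is annotated with AN1901. At AN8806 the signal was 1082 and 765 in LaeA::FLAG replicates 2 and 3. At AN1900 it was 712 and 685 in replicates 1 and 2, and at cbpA it was 408 and 561 in replicates 1 and 3. The VeA::FLAG IgG signal of the merged region was 1580 at AN8806, above both anti-FLAG values there. It was 4.77 at AN1900 and 246 at cbpA, below the anti-FLAG values of these sites.

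These 11 peaks had a median score of 295 and a median fold of 3.85. The VeA::FLAG IgG signal exceeded the LaeA::FLAG IgG signal at 4 of the 11, which are AN7715, AN8806, cbpA and AN10997. AN2604 and AN2336 also had a peak within 100 bp in single VeA::FLAG libraries, with a signal of 322 and 309 in replicates 2 and 3 at AN2604 and of 343 in replicate 2 at AN2336. The pooled VeA::FLAG list held no peak there. The peak nearest to AN9236 lay at the very end of the assembled chromosome VI, from 2 to 278, and had the highest fold of all LaeA-only peaks, 13.1, at an anti-FLAG signal of 198 over an IgG signal of 15.1.

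Among the 10 LaeA-only peaks of highest score, those not yet described lay near tK(CUU)4, AN9195, AN0836, AN4394 and 3 mitochondrial features. At the lysine tRNA gene tK(CUU)4 the signal was 1940 and 1720 in LaeA::FLAG replicates 1 and 3, against 4085 and 30431 in WT replicates 2 and 3. At AN9195 it was 1574 and 1818 in LaeA::FLAG replicates 1 and 2, against 6912 in WT replicate 3. The peaks at AN1912, tK(CUU)4 and amcA were the 3 WT-called peaks of highest score. At AN4394 it was 1607 in LaeA::FLAG replicate 2, against 12885 in WT replicate 3. At AN0836 the only called peak was in LaeA::FLAG replicate 3, with 693.

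The 5 mitochondrial peaks had scores of 559 to 1003 and folds of 2.43 to 4.82, and 0 of the 9 anti-FLAG libraries held a peak within 100 bp of any of them. They lay nearest to tG(ACC)1mt, tC(GCA)4mt, AN20005, AN20017 and AN20004, and the annotation named other features for the last 3 of these. The IgG signal of their merged regions was 151 to 336 tags per 10 M in LaeA::FLAG, 258 to 618 in VeA::FLAG and 582 to 954 in WT. The mitochondrial genome is present in many copies per cell, and copy number and binding cannot be told apart by signal alone. Nuclear tRNA genes were nearest to 7 LaeA-only peaks. With the mitochondrial ones, tRNA genes were nearest to 2.04% of LaeA-only peaks (9 of 441, 95% Wilson interval 1.08% to 3.83%), against 1.62% of the other exon 1 promoter peaks (18 of 1108, 1.03% to 2.55%).

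The IgG control was examined because every peak call of a strain was made against the IgG library of that strain, and a VeA peak had to exceed the VeA::FLAG IgG signal. The values of this library are therefore tied to the rule and are given as a description, with no test. In the merged regions that hold the peaks, the median VeA::FLAG IgG signal was 105 tags per 10 M at LaeA-only peaks, against 76.4 at the other exon 1 promoter peaks. For the LaeA::FLAG IgG library the medians were 101 and 172, and for the WT IgG library they were 115 and 173, so that both of these were lower at LaeA-only peaks.

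The regions of LaeA-only peaks were narrower, with a median width of 289 bp, against 486 bp for the other peaks, and signals were therefore also divided by width. Per kb, the median VeA::FLAG IgG signal was 295 at LaeA-only peaks and 158 at the other exon 1 promoter peaks, beside 156 over all 21897 merged regions. The LaeA::FLAG IgG medians were 312 and 378 per kb, beside 369 over all regions. The WT IgG medians were 320 and 382 per kb, beside 307 over all regions. The VeA::FLAG IgG signal was higher than the LaeA::FLAG IgG signal at 204 of 441 LaeA-only peaks (46.3%, 95% Wilson interval 41.7% to 50.9%), against 190 of 1108 other peaks (17.1%, 15.0% to 19.5%). The middle 50% of LaeA-only peaks spanned 75.5 to 553 per kb in this library, and 16.8% of them had no VeA::FLAG IgG tag at all, so that the set was mixed.

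In the highest group by score the median VeA::FLAG IgG signal was 879 per kb at the 46 LaeA-only peaks, against 173 at the 390 other exon 1 promoter peaks. The WT IgG medians were 743 and 448 per kb, and the LaeA::FLAG IgG medians were 501 and 446 per kb. VeA::FLAG IgG exceeded LaeA::FLAG IgG at 34 of the 46 (73.9%, 95% Wilson interval 59.7% to 84.4%), against 53 of the 390 (13.6%, 10.5% to 17.3%). At the 19 LaeA-only peaks with a WT peak it did so at 17, against 9 of the 33 other peaks with a WT peak. The part of the IgG libraries in the absence of VeA peaks was not tested. At the 422 LaeA-only peaks with no WT peak the VeA::FLAG IgG median was 277 per kb, against 158 at the 1075 other peaks with no WT peak.

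**Figure D4:**
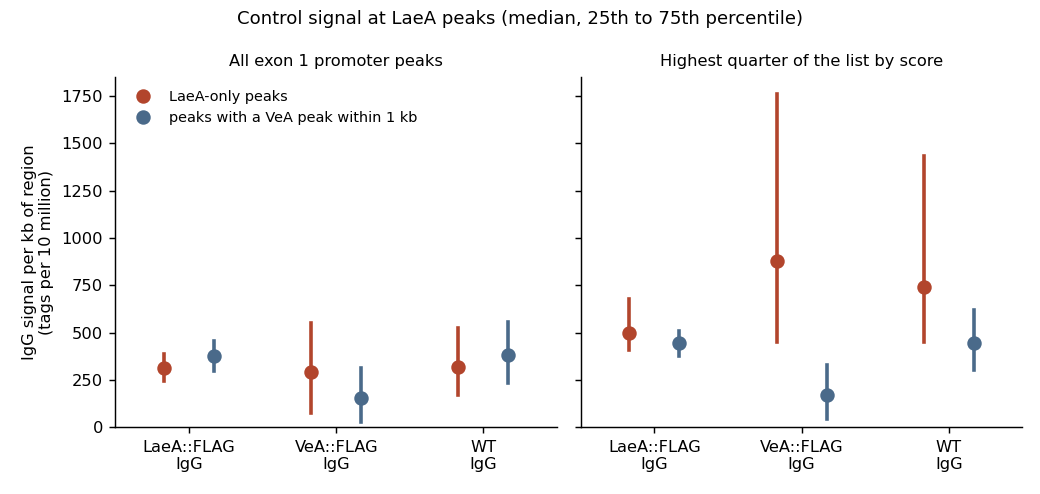
IgG signal per kb of merged region (tags per 10 M) in the 3 IgG libraries at LaeA-only peaks and at the other exon 1 promoter peaks, as the median with a line from the 25th to the 75th percentile over regions, for all peaks and for the highest of 4 groups by score. The VeA::FLAG IgG median is 295 against 158 in all peaks and 879 against 173 in the highest group.

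The absence of a VeA peak was also examined in the single VeA::FLAG libraries, which were pooled to make the VeA list and are a description for that reason. A VeA::FLAG peak of at least 1 single library lay within 1000 bp of 253 LaeA-only peaks (57.4%, 95% Wilson interval 52.7% to 61.9%), beside 76.8% of all LaeA combined peaks. Peaks of at least 2 libraries lay within this distance of 72 LaeA-only peaks and peaks of all 3 libraries of 10. No single VeA::FLAG library had a peak within 1000 bp of the other 188 LaeA-only peaks (42.6%). Within 100 bp, 56 LaeA-only peaks (12.7%) had a peak of at least 1 VeA::FLAG library, beside 34.1% of all LaeA combined peaks. The 188 peaks and the 253 peaks had median scores of 215 and 216 and median folds of 2.66 and 2.67.

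A gene near a LaeA-only peak may have a VeA peak elsewhere. This was so for 57 of the 441 LaeA-only peaks (12.9%), beside 65.4% of all LaeA combined peaks. The rule removed peaks with a VeA centre nearby, so the lower share follows from it and is a description. In terms of genes it was so for 57 of 438 (13.0%), to which 64 VeA combined peaks lay nearest. Of these 64 VeA peaks 27 lay at transcription termination sites, 22 at the start of an exon, 9 between genes and 6 in exons. A VeA peak at the first exon was found for 4 of the 438 genes, which are AN3042, AN5572, AN6048 and AN8694, at distances of 1012 to 1356 bp between the LaeA and VeA centres. Some genes, among them AN8694, AN0034, AN3730 and AN6338, also had one of the other exon 1 promoter peaks of LaeA. Those peaks have a VeA centre within 1000 bp. These genes are named after their values were seen. The nearest-gene rule assigns each peak to 1 gene only.

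Genes with a role in the processes that LaeA is known for were looked up in 8 lists. A symbol in the gene table was found for 90 of their 163 entries, and the others were not analysed here. Of these 90 genes, 5 had a LaeA-only peak (5.56%) and 25 had one of the other exon 1 promoter peaks. Of all 780 genes that have a symbol there, 30 had a LaeA-only peak (3.85%) and 119 had one of the other peaks. Signalling had 2 of 20 genes (sfaD and gpgA), the list of glycolysis and trehalose 1 of 6 (fbp1), the nutrient regulators 1 of 16 (facB), development and light 1 of 25 (imeB) and the core network of LaeA 1 of 15 (imeB again). The study drew this core network from genes with LaeA peaks in these same data, so LaeA peaks at them were given in advance. Its genes are also part of the 90, so the shares over all lists are a description. The lists of secondary metabolism, stress defence and chromatin had 0, but only 8 of 41, 8 of 12 and 6 of 12 of their entries were looked up. These counts cover only the genes looked up. The chromatin gene ino80, described below, had a LaeA-only peak but was not among them. A LaeA-only peak nearest to fmaG (AN3394), also not among them, was called in LaeA::FLAG replicate 1 with a signal of 512. The annotation of that peak names AN3395. The 8 genes of secondary metabolism that were looked up had 0 of the other exon 1 promoter peaks as well.

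The genes sfaD and gpgA of the signalling list encode subunits of 1 protein complex. sfaD encodes the beta subunit and gpgA the gamma subunit of a heterotrimeric G protein, which passes signals from receptors at the cell surface and is needed for vegetative growth and development. The peak at sfaD (AN0081) lay on chromosome VIII from 4671717 to 4671993, 376 bp upstream of the start. Its pooled anti-FLAG signal was 289 tags per 10 M over an IgG signal of 82.9, a fold of 3.49. Its merged region, which is wider, held an IgG signal of 191 in LaeA::FLAG, 379 in VeA::FLAG and 331 in WT. The VeA::FLAG and WT values lay above the anti-FLAG signal of the peak. The peak at gpgA (AN2742) lay on chromosome VI from 2948196 to 2948472, 119 bp upstream, with a signal of 172 over 55.6, a fold of 3.09. The merged region of gpgA held an IgG signal of 95.45 in VeA::FLAG and 18.8 in WT, both below the anti-FLAG signal. Neither peak was called in a single LaeA::FLAG library or in WT within 100 bp.

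The peak at imeB, which encodes a protein kinase that acts in the light control of sexual development, lay on chromosome I from 777471 to 777747, 13 bp downstream of the start. Its pooled signal was 310 tags per 10 M over an IgG signal of 139, a fold of 2.23. It was called in LaeA::FLAG replicate 2 with a signal of 582 and also in VeA::FLAG replicate 3 with a signal of 385, and in no WT library. The LaeA peak was thus LaeA-only by the pooled VeA list but was called in 1 library of each tagged strain. Both libraries are part of the pools that gave the combined lists, so these calls are a description. Over all LaeA combined peaks, 47.4% were called in at least 1 LaeA::FLAG replicate and 34.1% in at least 1 VeA::FLAG library within 100 bp.

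facB, of the list of nutrient regulators, encodes the transcriptional activator of acetate utilisation, and its peak lay 937 bp upstream on chromosome VIII from 2780760 to 2781036, with a signal of 196 over 47.1, a fold of 4.16. fbp1, of the list of glycolysis and trehalose, encodes fructose-1,6-bisphosphatase, an enzyme of gluconeogenesis, and its peak lay 97 bp upstream on chromosome V from 2253922 to 2254198, with a signal of 344 over 111, a fold of 3.11. The merged region of facB held an IgG signal of 265 in VeA::FLAG, above its anti-FLAG signal, and 119 in WT. At fbp1 the IgG signal was 138 in VeA::FLAG and 151 in WT, both below its anti-FLAG signal. Neither peak was called in a single LaeA::FLAG or WT library.

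The gene table gave a symbol for 30 of the 438 genes, with 31 peaks, because isn1 had 2 peaks, at 260 and 950 bp upstream. The genes without a list are named after their values were seen. The median score at the 31 peaks was 228, and their folds were 2.05 to 5.62. Of the 31 peaks 16 were called in no single LaeA::FLAG library, 13 in 1, 1 in 2 (cbpA) and 1 in 3 (amcA), and the peak at amcA was the only one with a WT peak. Over all LaeA combined peaks, 47.4% were called in at least 1 LaeA::FLAG replicate and 4.35% in at least 1 WT library. The counts at the 31 peaks were near these shares. After amcA the highest scores were those of admA (600), cbpA (491), pmcA (468) and aspf4 (392). At pmcA, which encodes a calcium-transporting ATPase, the signal was 700 in LaeA::FLAG replicate 3 and 350 in VeA::FLAG replicate 3.

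Further genes with a symbol are given with their known roles, and no list was tested for them. rps23 encodes a protein of the small ribosomal subunit, and nop9 and erb1 encode factors of ribosome assembly. Their peaks lay 71 bp downstream, 16 bp downstream and 68 bp upstream of the start, with folds of 2.26, 2.63 and 2.72, and none was called in a single LaeA::FLAG library. At rps23 the pooled signal was 143, below the IgG signal of its wider merged region in VeA::FLAG (339) and WT (245). At nop9 and erb1 the pooled signal lay above the IgG signal of the merged region in both of these libraries. cwc26 and cwc27, whose yeast counterparts are associated with the spliceosome, had folds of 2.05 and 2.23. ino80, which encodes the ATPase of a chromatin remodelling complex, had a fold of 4.55, with a signal of 287 over 63.1.

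sec13 encodes a coat protein of transport vesicles, srgA a small GTPase of secretion, gmtA a GDP-mannose transporter and gwt1 an enzyme of GPI anchor synthesis, with folds of 2.41, 2.27, 2.66 and 2.66. sho1, which encodes a membrane protein of the osmotic stress pathway, had a fold of 2.60, and nimX, which encodes the cyclin-dependent kinase of mitosis, had a fold of 2.94. The peaks at gmtA, gwt1 and nimX were each called in 1 LaeA::FLAG library, with signals of 345, 391 and 297. The peaks at sec13, srgA and sho1 were called in no LaeA::FLAG library, and that at sec13 was called in VeA::FLAG replicate 2 with a signal of 145. The annotation names another gene for the peaks at erb1, cwc27, sec13 and gmtA, so these assignments are uncertain.

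**Figure D5:**
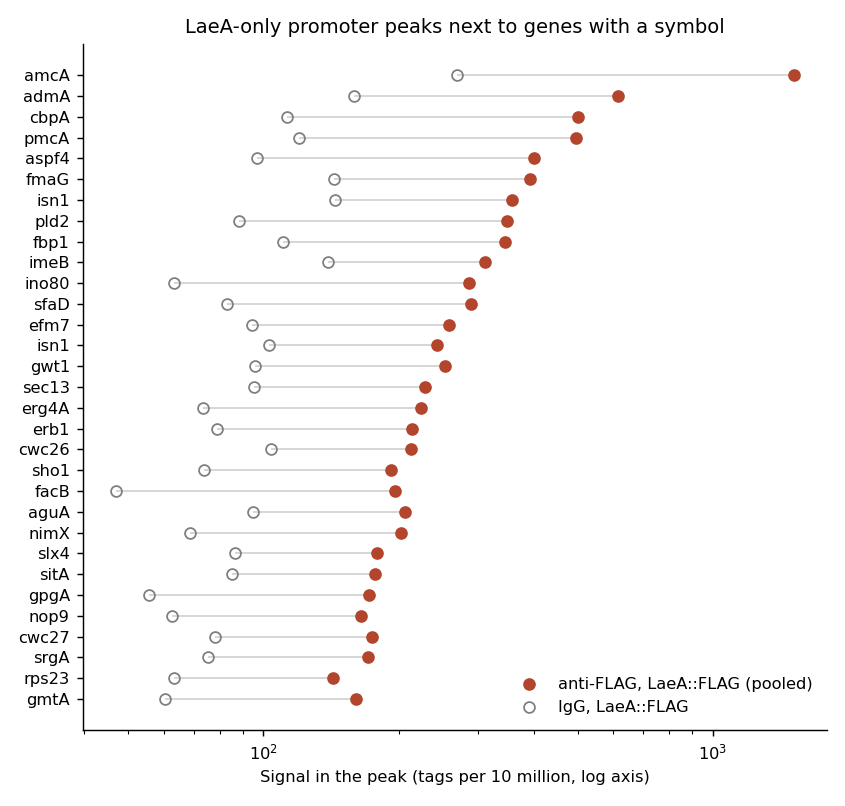
Pooled anti-FLAG signal (filled) and IgG signal of the same strain (open) in tags per 10 M on a log axis for the 31 LaeA-only peaks next to genes with a symbol, in order of score. All filled points lie right of their open points, by 2.05-fold to 5.62-fold, as the peak call requires.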

How the data were processed

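The analysis used annotated peak lists of 12 ChIP-seq libraries. According to the methods of the study, bowtie2 was used for mapping and HOMER, in its high sensitivity mode, for peak calling. The submitters' processing notes name HOMER 4.11. Each anti-FLAG library and each pool of 3 libraries was called against the IgG library of its own strain. The deposited signal is the number of tags within a peak after scaling the library to 10 M tags. The score deposited by the authors is the value by which the caller ranks peaks, and the distance to the nearest exon start was taken as deposited. The IgG lists hold the signal of 21897 merged regions. The number of per-sample columns that matched no sample was 0.

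LaeA-only peaks were found with pandas 2.3.3 by the rule given above. Fold is anti-FLAG over IgG signal. Peaks were called shared when centres lay within 100 bp, the distance of the study. Libraries were compared by an exact paired two-sided permutation test (sign flips) on the per-library difference of 2 shares, and the overlap and test functions were tested on simulated data. The IgG signal of a peak in the text is that of the merged region that holds its centre, which was chosen after seeing the data, because the planned rule (nearest region centre within 100 bp) left out 41 LaeA-only peaks. Symbols came from a gene table of the ASM1142v1 assembly, used for names only, in which 404 of the 438 genes were matched. The members and gene lists were chosen with earlier results of these data known. Named genes were those nearest to the 10 peaks of highest score, to peaks called in all 3 LaeA::FLAG replicates, to the 3 WT-called peaks of highest score, to peaks next to the 1000 bp limit and in the lists. No genome sequence was used here, so the planned motif search was not run.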

Additional observations from a re-analysis of the deposited data

How the results depend on the processing

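The number of LaeA-only peaks stayed within 1.5 times 441 with limits of 500 or 2000 bp, with the promoter taken as 1.5 kb upstream (357), without peaks near WT peaks (422) and without mitochondrial peaks (436). It was 1010 with a limit of 100 bp, 188 when peaks of single VeA::FLAG libraries also removed a LaeA peak and 44 at a fold of at least 4. The share called in at least 2 LaeA::FLAG replicates (4.31%) was 2.72% at 50 bp, 6.80% at 200 bp, 26.1% in the highest group by score, 2.61% without peaks near WT peaks (added after seeing the data) and 2.04% to 2.72% when 1 replicate was left out and both others had to hold the peak. The share called in WT was 23.9% in the highest group by score (added after seeing the data), 2.95% without WT replicate 2 or without WT replicate 3, 3.40% at 50 bp and 6.58% at 200 bp. The differences between LaeA-only and other exon 1 promoter peaks kept their direction in all alternatives, from -8.31 to -3.74 percentage points in LaeA::FLAG and from 0.12 to 10.1 in WT, and none could reach 0.05.

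By the planned rule for regions the median IgG signal at LaeA-only peaks was 95.9 in LaeA::FLAG, 95.5 in VeA::FLAG and 104 in WT. In the highest group by score it was 191 in LaeA::FLAG, 322 in VeA::FLAG and 282 in WT. With region centres within 50 bp it was 88.8 in LaeA::FLAG. The share of genes with a VeA peak elsewhere (13.0%) was 0.913% for VeA peaks at exon 1 only. The causes of these shifts were not tested. No paired analysis was possible because replicate numbers would pair libraries of different strains, and no test compares strains. The permutation tests were paired in another way, because they compared the 2 sets of peaks within each library. Signals and IgG values of different strains are set side by side as a description only, and the anti-FLAG libraries differed in depth. The depth of the IgG libraries is not given here.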
